A study of Argiope bruennichi with 12 samples.

Results

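The heat shock protein 70 B2 genes of the wasp spider Argiope bruennichi are described here: the 4 genes of the count table that the study names heat shock protein 70 B2 or B2-like, out of 37459 genes listed. They are LOC129958558, LOC129962610, LOC129965391 and LOC129975178, and all 4 passed the filter on low counts that left 14057 genes for testing. RNA was sequenced from 12 pools of 15 whole spiderlings, the first-instar young that overwinter inside the egg sac, from mothers collected in Estonia at the northern range edge. The egg sacs had spent 3 months in 1 of 3 fixed winter regimes, with 4 pools per regime: cold (5°C by day and -15°C by night), moderate (5°C and -5°C) and warm (15°C and -5°C). Each regime had its own climate cabinet, so that regime and cabinet cannot be told apart, and no pools were kept at a constant temperature. In RNA from whole bodies, fewer cells of a type and less RNA per cell cannot be told apart.

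HSP70 proteins are chaperones that bind unfolded stretches of other proteins and release them in cycles driven by ATP, with J-domain proteins and nucleotide exchange factors as helpers. Animals usually carry constitutive copies and copies that are switched on by heat, by recovery from cold or by other stress that unfolds proteins. The roles of the individual spider copies are not known here, and their sequences were not used.

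The study picked these genes from its comparison of the warm with the moderate regime. The difference between warm and moderate pools is therefore given as a description without a test, and tests were run for cold against moderate and for warm against cold. These comparisons still share the moderate or the warm pools with the choice of the genes.

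The libraries held between 10800714 and 16081111 counts. Across the genes tested, 2 libraries of the moderate regime stood apart. The library labelled moderate 4 was closer to the mean of the warm pools (root mean square difference of 0.38 in log2 CPM, the TMM-scaled counts relative to library size) than to the mean of the other moderate pools (0.68). The library labelled moderate 2 lay 0.69 from the mean of its own regime, whereas cold and warm pools lay 0.34 to 0.42 from theirs. Fold-changes and correlations that rest on these libraries are given with and without them.

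The copies lie on 4 different chromosomes of the assembly qqArgBrue1.1. LOC129958558 spans chr2:133493861-133496324, LOC129962610 chr3:114521735-114523911, LOC129965391 chr4:109513078-109515257 and LOC129975178 chr7:70692605-70694796. All are annotated as protein-coding, and their spans are alike, with 2464, 2177, 2180 and 2192 bases. Of the copies, 3 lie wholly within the span of a longer protein-coding gene: LOC129958558 within LOC129958565, LOC129965391 within LOC129965390 and LOC129975178 within LOC129975177. LOC129962610 overlaps no other gene. How reads on either strand, or reads that map to several copies, were counted is not stated, so that counts of similar copies and of nested genes are uncertain.

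LOC129958558 was the most abundant copy in each of the 12 pools. Its normalized counts, which are TMM-scaled counts at the average library size, were 2899.8, 896, 2687 and 939 in cold pools 1 to 4. They were 4813, 7734, 3366 and 239.6 in the moderate pools and 759, 476, 502 and 305 in the warm pools. Each warm pool lay below each cold pool, and moderate 4 lay below all of them while the other moderate pools lay above all of them.

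LOC129962610 had the second highest level per kilobase of gene span in 10 of the 12 pools. Its normalized counts were 373, 290.2, 858 and 306 in the cold pools, 984, 2374, 606 and 47.5 in the moderate pools, and 68.2, 82.9, 170.4 and 61.1 in the warm pools. Again the warm pools did not overlap the cold pools, and moderate 4 was the lowest pool of all.

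The other copies were scarcer. LOC129965391 had normalized counts of 227, 165, 357 and 89.3 in the cold pools, 399, 711, 171 and 24.9 in the moderate pools, and 40.6, 70.4, 100.1 and 51.7 in the warm pools. LOC129975178 had normalized counts of 373, 75, 223 and 85.3 in the cold pools, 259.6, 1421, 376 and 55.4 in the moderate pools, and 42.4, 63.6, 88.2 and 63.0 in the warm pools. For both copies 3 of the 4 warm pools lay below the lowest cold pool, and 1 warm pool, warm 3, lay within the cold range. Moderate 2 was the highest pool for all 4 copies.

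**Figure D1:**
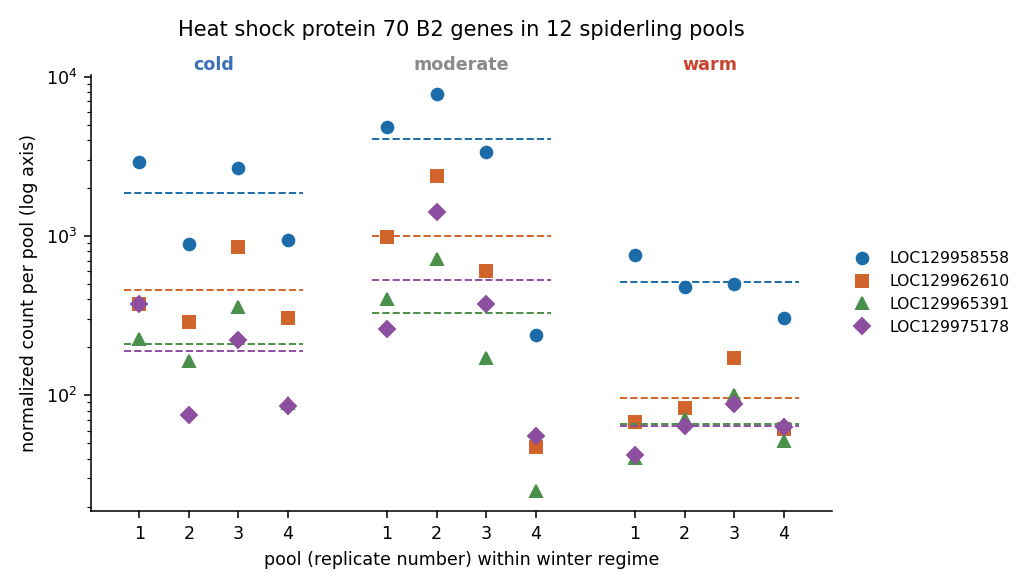
Normalized count (log axis) of the 4 heat shock protein 70 B2 genes in each of the 12 pools, grouped by winter regime; each symbol is 1 pool and dashed lines are the means of 4 pools. LOC129958558 is the highest symbol in each pool, and the moderate pools span from 239.6 to 7734 for this copy.

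The 4 copies together made up between 0.00263 and 0.0804% of the counts of a library. Their summed normalized counts were 3873, 1426, 4124 and 1420.2 in the cold pools, 6456, 12240.4, 4519.7 and 367 in the moderate pools, and 910.3, 693, 861 and 481 in the warm pools. Ordered by this sum, moderate 4 came first as the lowest pool, followed by the 4 warm pools, the 4 cold pools and the other 3 moderate pools. The mean sum was 736 ± 194 (SD, n = 4) in the warm, 2711 ± 1491 in the cold and 5896 ± 4934 in the moderate regime, so that the SD of the moderate regime was larger than its distance from the cold mean.

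The pools of one regime differed more in these genes than in most others. In the moderate regime the highest pool was 32.3 times the lowest for LOC129958558, 50 times for LOC129962610, 28.6 times for LOC129965391 and 25.7 times for LOC129975178. On the log2 scale these ranges were 4.63 to 5.59, above those of 99.86 to 99.96% of the genes tested, whose median range was 0.76. For each copy the highest of these pools was moderate 2 and the lowest moderate 4, the libraries that stood apart. Moderate 1 and moderate 3 had 4813 and 3366 for LOC129958558, and 984 and 606 for LOC129962610. They had 399 and 171 for LOC129965391, and 259.6 and 376 for LOC129975178. Ranges without the libraries that stood apart were not computed. The ranges of the copies were 1.56 to 2.29 in the cold regime (median of all genes 0.39) and 1.02 to 1.45 in the warm regime (median 0.41). They lay above those of 95.7 to 98.7% of genes in the cold and 87.8 to 94.6% in the warm regime. A wide spread was not particular to the copies. The 4 small heat shock protein genes described below had ranges of 2.27 to 4.65 in the moderate regime, above 96.1 to 99.87% of genes. The biological coefficient of variation estimated by edgeR over all pools, moderate 2 and moderate 4 among them, was 0.636 to 0.684 for the 4 copies. It was 0.360 to 0.594 for the small heat shock protein genes, against a median of 0.191 over the genes tested. These values are a description, because moderate and warm pools served to choose the genes.

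**Figure D2:**
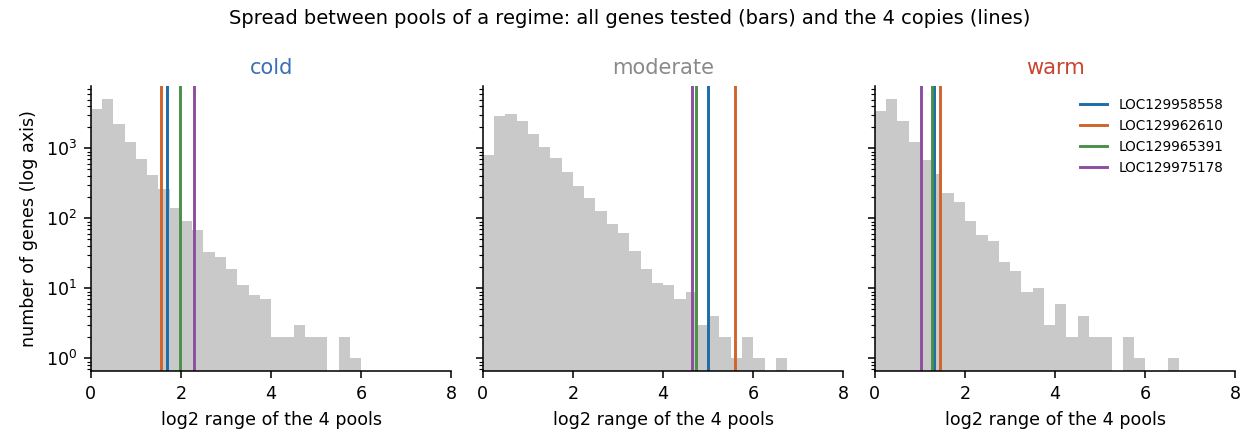
Log2 range between the highest and the lowest of the 4 pools of a regime (horizontal axis) against the number of genes (log axis) for the genes tested, with the 4 copies as vertical lines. The lines lie between 4.63 and 5.59 in the moderate regime, and between 1.02 and 2.29 in the cold and warm regimes.

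The first comparison asks whether the colder nights of the cold regime went with another level of these genes than the moderate regime. All 4 copies had lower fitted levels in the cold regime, and none passed the test. The log2 fold-changes were -1.12 (SE 0.68) for LOC129958558, -1.13 (SE 0.71) for LOC129962610, -0.63 (SE 0.65) for LOC129965391 and -1.47 (SE 0.72) for LOC129975178. In the quasi-likelihood test of edgeR, adjusted over all genes tested by the method of Benjamini and Hochberg, the adjusted p-values were 0.534, 0.552, 0.734 and 0.442. Thus 0 of 4 copies were called, against 0.0142% of the genes tested, and 0 of 4 had an unadjusted p under 0.05, against 12.0%. DESeq2's Wald test also called 0 of 4 (1.35% of its genes), and in 0 of 4 the pools of the regimes were separate with cold lower (2.20% of genes). The 95% intervals were wide, from -2.57 to 0.33 for LOC129958558 and from -3.01 to 0.073 for LOC129975178, and they do not show that the levels were alike.

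The size of these differences varied with the libraries that stood apart. Without moderate 4 the log2 fold-changes were between -1.84 and -1.02, with adjusted p-values (edgeR) of 0.0649 to 0.223. Without moderate 2 they were between -0.60 and 0.072, and LOC129965391 then had a log2 fold-change of 0.072, the opposite sign. Without both libraries they were between -1.14 and -0.45, with 0 of 4 copies called.

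The second comparison sets the warm against the cold regime, which have the same span between day and night and differ in both temperatures. All 4 copies had lower fitted levels in the warm regime. LOC129962610 had a log2 fold-change of -2.26 (SE 0.77), a fitted level 4.78-fold lower, with an adjusted p of 0.0920 in edgeR's test. LOC129958558 had a log2 fold-change of -1.86 (SE 0.70), a fitted level 3.63-fold lower (adjusted p = 0.118 in edgeR). For LOC129965391 the value was -1.67 (SE 0.69; adjusted p = 0.153 in edgeR), and for LOC129975178 it was -1.56 (SE 0.76; adjusted p = 0.211 in edgeR).

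At the threshold of 0.05, 0 of 4 copies were called in warm against cold, against 5.47% of the genes tested. DESeq2's Wald test also called 0 of 4 (12.7% of its genes), with adjusted p-values of 0.0561 to 0.204. In edgeR 3 of 4 copies had an unadjusted p under 0.05 (25.4% of genes). For 2 of 4 copies, LOC129958558 and LOC129962610, the highest warm pool lay below the lowest cold pool (13.8% of genes).

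This outcome changed with pools that belong to neither regime. The spread of the test is estimated over all 12 pools, and the share of all genes called changed as well. Why the calls changed was not tested. With a fit of only the cold and warm pools, 4 of 4 copies were called, with adjusted p-values (edgeR) of 0.00494 to 0.0392, at nearly the same fold-changes of -2.26 to -1.56. In that fit 23.7% of the genes tested were called. Without moderate 4, edgeR called 3 of 4 copies (15.8% of genes), without moderate 2 it called 1 of 4, LOC129962610 (13.1%), and without both it called 4 of 4 (24.3%). With limma's voom method and sample weights over all pools, 2 of 4 were called, LOC129958558 and LOC129962610, among 26.5% of genes.

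The warm regime against the moderate regime is the comparison from which the genes were chosen. As a description, the log2 fold-changes were -2.98 (SE 0.72) for LOC129958558, -3.39 (SE 0.79) for LOC129962610, -2.31 (SE 0.70) for LOC129965391 and -3.03 (SE 0.78) for LOC129975178. In 0 of 4 copies did the pools separate (5.34% of genes had warm pools wholly below moderate pools), since moderate 4 lay below all or all but 1 of the warm pools for each copy. Without moderate 4 the fold-changes were between -3.79 and -2.70, and without moderate 2 they were between -2.52 and -1.60. The order of the regime means was moderate, cold, warm for each copy, and neighbours in this order did not differ past the threshold in the fit of all pools.

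**Figure D3:**
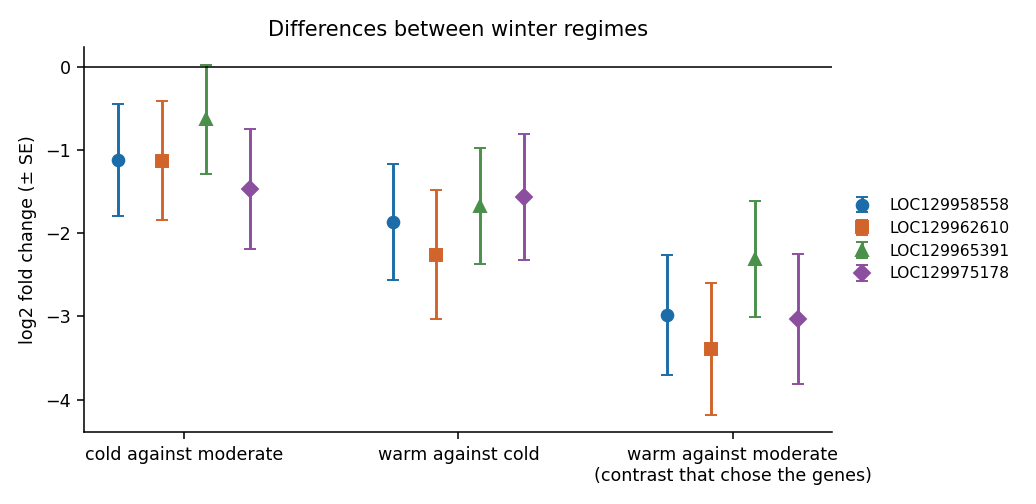
Log2 fold-change (vertical axis, bars are ± 1 SE of the edgeR fit over 12 pools) of the 4 copies in 3 comparisons of winter regimes. The values lie between -1.47 and -0.63 in cold against moderate and between -2.26 and -1.56 in warm against cold; the warm against moderate values, between -3.39 and -2.31, chose the genes and carry no test.

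The make-up of the sum was compared next, as the share of each copy in the summed counts of a pool, which does not depend on the scaling between libraries. LOC129958558 held 74.9, 62.8, 65.1 and 66.1% in the cold pools, 74.6, 63.2, 74.5 and 65.2% in the moderate pools, and 83.4, 68.7, 58.3 and 63.4% in the warm pools. It thus gave more than all other copies together in each pool, whether the sum was high or low. In moderate 4, where the sum was 325 counts, the share of 65.2% had an exact 95% binomial interval of 59.8 to 70.4%, and in moderate 2, with 8689 counts, the interval was 62.2 to 64.2%. These intervals cover counting error only.

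LOC129962610 held 9.64, 20.3, 20.8 and 21.6% in the cold pools, 15.2, 19.4, 13.4 and 12.9% in the moderate pools, and 7.50, 12.0, 19.8 and 12.7% in the warm pools. LOC129965391 held between 3.79% (moderate 3) and 11.6% (warm 3). LOC129975178 held between 4.02% (moderate 1) and 15.1% (moderate 4), and in cold 1 it had the same count as LOC129962610, 448. The scarcer copies thus changed places from pool to pool.

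Per kilobase of gene span the order of levels was much the same. LOC129958558 was first in 12 of 12 pools, at 2.60 to 9.83 times the level of the copy in second place. LOC129962610 was second in 10 pools, and LOC129975178 was second in the other 2, moderate 4 and warm 4. LOC129965391 and LOC129975178 were each last in 6 pools, so that no order between them held.

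The mean share of LOC129958558 was 67.2 ± 5.27% (SD, n = 4) in the cold, 69.4 ± 6.01% in the moderate and 68.5 ± 10.8% in the warm regime. No share passed the test in cold against moderate or in warm against cold. In cold against moderate the share of LOC129958558 differed by -2.12 percentage points (SE 4.00; exact permutation test, two-sided, p = 0.743) and in warm against cold by 1.22 points (SE 6.01; exact permutation test, p = 0.83). The largest of the 8 differences tested was that of LOC129962610 in warm against cold, -5.10 points (SE 3.8; exact permutation test, p = 0.286). Over the 8 tests the exact p-values were 0.171 to 0.83 and the adjusted values 0.629 to 0.83, where 4 against 4 pools can give 0.0286 at the smallest. A lone share at this smallest p would not pass after adjustment over the 8 tests. The test could therefore hardly call a share, and it does not show that the shares were alike. The warm against moderate differences, as a description, were between -2.25 points (SE 2.94, LOC129962610) and 3.61 points (SE 1.75, LOC129965391). Pools of one regime nevertheless differed in their shares by more than counting error, with chi-square divided by its degrees of freedom at 42.2 in the cold, 53.3 in the moderate and 18.4 in the warm regime.

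**Figure D4:**
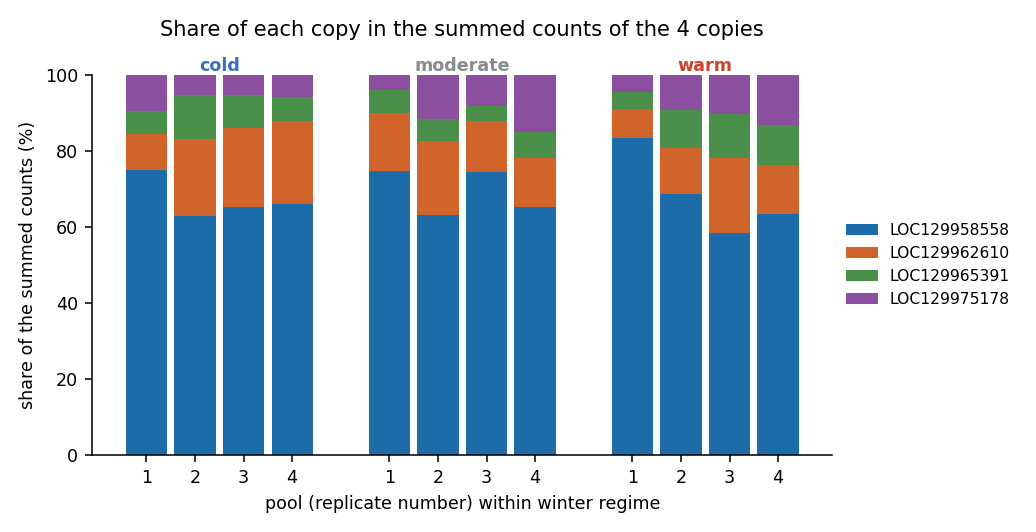
Share of each copy in the summed counts of the 4 copies (stacked bars, percent) in each of the 12 pools, grouped by winter regime. The share of LOC129958558, the lowest block of each bar, lies between 58.3% (warm 3) and 83.4% (warm 1).

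To see whether the copies moved together from pool to pool, the mean of the regime was taken from the log2 CPM of each pool. Over the 12 pools the deviations of the copies were correlated in all 6 pairs, with Pearson's r of 0.85 to 0.97 and Spearman's rho of 0.75 to 0.90. Pools were permuted within regimes, in an exact two-sided test with 13824 arrangements. The adjusted p-values over the 6 pairs were 0.00217 to 0.0187 for r and 0.00477 to 0.0441 for rho in this exact test. LOC129962610 and LOC129965391 were the closest pair, with an r of 0.97 and a rho of 0.90. How often pairs of other genes reached such coefficients was not computed, so that they are not shown to be particular to the copies. Of 13773 other genes, 82 had an r of at least 0.9 with the summed copies. The points of a pair share their libraries and hence any error of scaling. The genes were chosen as different between warm and moderate pools, and moderate 4 was close to the warm pools. A joint drop of the copies in moderate 4 can thus follow from the choice, and the p-values do not allow for it.

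The relation was weaker without moderate 2 and moderate 4, the pools farthest from the median for each pair. Without them, and with the deviations otherwise kept, r was 0.61 for LOC129958558 with LOC129962610 and also 0.61 with LOC129965391, and 0.59 with LOC129975178. LOC129962610 and LOC129965391 kept the highest value, 0.86, and LOC129962610 and LOC129975178 had the lowest, 0.45. With the regime mean taken anew over the 10 pools left, r was 0.47 to 0.84 and rho 0.58 to 0.79. The adjusted p-values of the exact permutation test for r were 0.0625 to 0.292, and rho was not tested over these pools. In the 8 cold and warm pools alone, r was 0.50 to 0.84 and rho 0.57 to 0.86. The adjusted p-values by the same exact test were 0.125 to 0.295 for r and 0.153 to 0.264 for rho. The coefficients over these 10 and 8 pools were positive, but after adjustment r no longer passed the test for any pair. For LOC129962610 with LOC129965391 the unadjusted p of the exact test for r was 0.0104 over the 10 pools and 0.0208 over the 8 pools. With 8 pools there were 576 arrangements, fewer than the 13824 over 12 pools. Within the 4 warm pools alone, r of LOC129958558 was 0.15 with LOC129962610, -0.21 with LOC129965391 and -0.49 with LOC129975178. The pairs among the other copies had r of 0.78 to 0.94 there. Within the 4 cold pools alone, r of LOC129958558 was 0.70, 0.82 and 0.97 with the same copies. The pairs among the other copies had r of 0.52 to 0.82 in the cold pools. Within the moderate regime, outlying pools included, r was 0.91 to 0.99 for the 6 pairs. Coefficients within a single regime were not tested. LOC129958558 was highest in warm 1, at 759, where LOC129965391 and LOC129975178 were lowest, at 40.6 and 42.4.

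**Figure D5:**
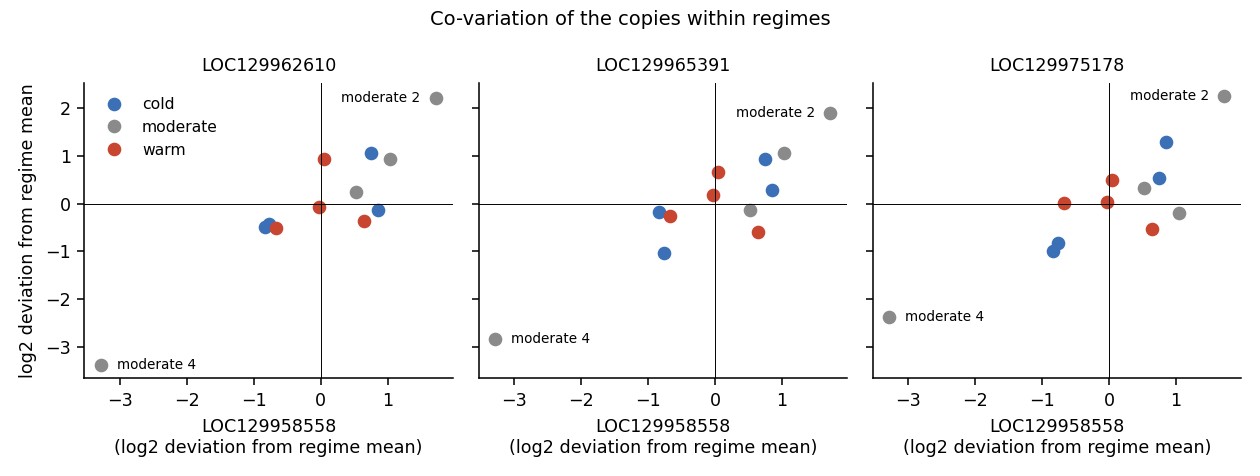
Log2 deviation from the regime mean of LOC129958558 (horizontal axis) against that of each of the other copies (vertical axis); each point is 1 of the 12 pools, coloured by regime. Moderate 2 lies at the upper right and moderate 4 at the lower left in each panel, and r over the 12 pools is 0.91, 0.90 and 0.86 from left to right.

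The longer genes around 3 of the copies showed lower or negative correlations with the summed copies. The correlation of each longer gene with the copy nested in it was not computed. Their deviations had correlations with those of the summed copies of 0.49 (LOC129958565), -0.67 (LOC129965390) and -0.27 (LOC129975177) over the 12 pools, and of -0.13, -0.12 and -0.11 in the 8 cold and warm pools. LOC129965390 had normalized counts of 37.5, 50.3, 42.0 and 88.3 in the cold pools and 139, 229, 305 and 79.0 in the warm pools. LOC129965391, nested within it, was low in the warm pools. Among the warm pools both genes were highest in warm 3, at 305 and 100.1. Their lowest warm pools differed, warm 4 for LOC129965390 (79.0) and warm 1 for LOC129965391 (40.6). The fitted difference of LOC129965390 in warm against cold was 1.78 (SE 0.59; adjusted p = 0.0860 in edgeR).

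Of the 13773 genes with a mean normalized count of at least 10, without the copies, 82 had an r of at least 0.9 with the summed copies and 90 had an r of -0.9 or lower. The most similar were LOC129963327 (r = 0.97), LOC129958590 (0.96), LOC129981251 (0.95), LOC129980835 (0.95) and LOC129962684 (0.95), all protein-coding. In the 8 cold and warm pools alone their r was 0.77 to 0.87. These pools were among the 12 that served to pick the genes, so that this r is no independent check. These coefficients are descriptions over 12 pools that share their libraries and the outlying pools of the moderate regime.

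The similar genes moved over smaller ranges than the copies. LOC129981251 had normalized counts of 428 to 475 in the cold, 350.4 to 461 in the moderate and 335 to 373 in the warm pools. LOC129963327 had 201 to 376 in the cold, 182 to 872 in the moderate and 175 to 214 in the warm pools. LOC129980835 was low throughout, with 13.8 to 33.6 in the cold, 4.52 to 31.0 in the moderate and 3.69 to 5.79 in the warm pools. It was the only one of the 5 called by edgeR in warm against cold (log2 fold-change -2.33, SE 0.53, adjusted p = 0.0283 in edgeR), as were 5.47% of genes. DESeq2 called LOC129980835 and LOC129981251 (adjusted p = 0.00193 and 0.0251 in DESeq2) and 12.7% of its genes.

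Beside cytochromes P450, which are not described here, the study lists 4 further genes under heat shock, all of the small heat shock protein family. Small heat shock proteins hold unfolding proteins in a soluble state without ATP and can pass them on to HSP70. The genes are LOC129988413 (small heat shock protein), LOC129957165 (protein lethal(2)essential for life-like, named after a small heat shock protein of Drosophila), and LOC129981871 and LOC129984551 (alpha-crystallin B and A chain-like, named after the lens proteins of vertebrates). They were also picked by the study on these samples, in warm against moderate and in part in warm against cold, so that their direction there is no independent evidence.

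All 4 of these genes had lower fitted levels in the warm regime than in the cold one, and 1 of 4 was called by edgeR (5.47% of genes) and 2 of 4 by DESeq2 (12.7%). LOC129984551 had normalized counts of 1625, 822, 995 and 1185 in the cold pools, 1356, 3205, 3335 and 131 in the moderate pools, and 71.9, 63.6, 143 and 153 in the warm pools. Cold and warm pools did not overlap, and moderate 4 lay among the warm pools. This gene fell by 3.42 on the log2 scale in warm against cold (SE 0.69; adjusted p = 0.0193 in edgeR). LOC129988413, with 1792 to 4816 in the cold and 537 to 1316 in the warm pools, had a log2 fold-change of -1.62 (SE 0.45; adjusted p = 0.0523 in edgeR and 0.0239 in DESeq2). The median over the 4 genes was -1.35, against -1.77 over the HSP70 copies and -0.0093 over the genes tested. Both sets were picked in comparisons that use the warm pools, so that their distance from the median of all genes can follow from the choice. The call of LOC129984551 was lost without cold 1, cold 4, warm 1 or warm 2 (adjusted p up to 0.0691 in edgeR), and edgeR called 3 of these genes without moderate 2 (13.1% of genes) or without moderate 4 (15.8%).

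In cold against moderate 0 of these 4 genes were called by edgeR (0.0142% of genes) or DESeq2 (1.35%). LOC129957165, 1 of 4, had an unadjusted p under 0.05, as did 12.0% of genes (log2 fold-change -1.22, SE 0.49; adjusted p = 0.358 in edgeR). Without moderate 4 it was called, at -1.56 (adjusted p = 0.0381 in edgeR), as were 4.58% of genes. The deviations of the small heat shock protein genes had an r of 0.69 to 0.82 with those of the summed HSP70 copies over the 12 pools. Without moderate 2 and moderate 4 the r was -0.06 to 0.34.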

How the data were processed

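RNA-Seq libraries of 12 pools were analysed. The authors depleted ribosomal RNA, aligned reads to the species' assembly with STAR 2.7.11a (2 passes) and assigned them to genes with featureCounts (Subread 2.0.6; versions also in the submitters' processing notes); the deposited values are raw counts. All 12 columns were used and 2 genes without values were left out. Counts were normalized by TMM, filtered with filterByExpr (minimum count 10) and tested with the quasi-likelihood functions of edgeR 4.0.16 (R 4.3.3), in one model of all pools with regime as factor. Deviations used log2 CPM with a prior count of 2. Shares and correlations were tested by exact permutation (Python 3.11.15). The scripts were first tested on simulated data. Alternatives were DESeq2 1.42.0, other normalizations, filters and priors, fits of only the regimes compared, a replicate block, each pool left out and, chosen after seeing the data, limma 3.58.1 (voom with sample weights) and both outlying moderate pools left out. The members and lists were chosen with earlier results of these data known. Genes named are the 4 copies, the 4 small heat shock protein genes the study lists under heat shock, the genes around the copies (chosen after seeing their positions), and the 5 genes with the highest r with the summed copies at a mean normalized count of at least 10. Replicate numbers come from the labels, and which egg sacs the pools came from is not stated, so that p-values measure the spread between these pools only. Pairs of pools of one regime had chi-square per degree of freedom of 9.85 to 56.5 and were counted as separate samples. Positions are from the qqArgBrue1.1 annotation. Exon lengths, product names, sequences and promoters were not used here.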

Additional observations from a re-analysis of the deposited data

Results flagged for a closer look

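Within a regime, a pool was singled out where its gap to the nearest pool, relative to the range of the 4 pools, exceeded Dixon's 95% critical value. This was so in 4 of 36 groups, where about 1 in 20 groups, or 1.8, are singled out by chance. LOC129962610 was highest in cold 3, with a normalized count of 858. LOC129981871 was also highest in cold 3, with a normalized count of 352. In cold 1 the share of LOC129962610 in the summed counts was the lowest of its regime at 9.64%, and that of LOC129975178 the highest, also at 9.64%. Shares of 1 pool add up to a whole and are not independent. Moderate 4 was not singled out in this way for any copy.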

How the results depend on the processing

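In cold against moderate 0 copies were called under each of the 21 alternatives, and in warm against cold 0 were called under 16 of 21. The count in warm against cold was 4 with only the regimes compared, 4 without both outlying moderate pools and 2 with limma's voom method (23.7, 24.3 and 26.5% of genes called). It was 0 to 3 with each pool left out (0.810 to 15.8% of genes). The log2 fold-changes of the copies in warm against cold were negative under each alternative (-2.69 to -0.99), and in cold against moderate LOC129965391 reversed to 0.072 without moderate 2 (range -1.02 to 0.072 with each pool left out). Of the small heat shock protein genes, 1 was called in cold against moderate with voom (5.72% of genes called), and 0 to 1 with each pool left out (up to 4.58%). In warm against cold 2 were called without the filter (2.90% of genes), 2 at 10 counts in every sample (6.31%) and 2 with DESeq2 (12.7%). There were 3 with only the regimes compared (23.7%), 3 with voom (26.5%) and 4 without both outlying pools (24.3%). With each pool left out 0 to 3 were called (0.810 to 15.8% of genes). The difference in the share of LOC129958558 in warm against cold was -3.76 to 4.59 points with each pool left out, and the share of LOC129975178 in cold against moderate reversed to 0.402 points without both outlying pools. The median r of the 6 pairs, 0.88, was 0.62 in cold and warm pools only, 0.56 without both outlying pools, and 0.68 (without moderate 4) to 0.93 (without warm 1) with each pool left out. With the replicate block no copy was called, with log2 fold-changes of -2.32 to -1.48 in warm against cold and adjusted p-values (edgeR) of 0.0850 to 0.247; same-numbered pools did not deviate together (r of -0.07 to 0.12), and the numbers do not pair the pools. Exon lengths were not used, so that shares were recomputed per gene span, which changed no direction. From the summed counts of the pools of a regime, the difference in the share of LOC129962610 in cold against moderate turned from 2.85 to -0.27 points. The causes of these changes were not tested.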
